A study of Homo sapiens with 8 samples.

Results

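Cancer-testis antigen genes were followed across 8 whole-genome arrays of MDA-MB-231, an established breast cancer line of human origin with mesenchymal traits. The genes were taken by symbol, as every measured gene whose symbol starts with MAGEA, MAGEB, MAGEC, PAGE, GAGE, XAGE, SSX, CTAG, CSAG or BAGE. This gave 36 of 15971 measured genes. Of these, 26 belong to the families meant (8 MAGEA, 2 MAGEB, 2 MAGEC, 3 PAGE, 4 SSX, 2 CSAG, 1 GAGE, 3 XAGE and 1 CTAG gene), and no BAGE gene was found by the rule. The other 10 share only the letters: 9 CTAGE genes, a family of their own, and SSX2IP, which encodes a partner protein of SSX2. All numbers of family members below refer to the 26, unless the 36 are named.

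Cancer-testis antigens are proteins made in the germ cells of the testis and silent in most other adult tissues, but switched on again in many tumours, where T cells can recognise them. Most of the families here lie on the X chromosome in clusters of recent gene copies, and loss of DNA methylation at their promoters is the best known way in which tumour cells come to express them. MAGE proteins bind RING-type ubiquitin ligases, SSX proteins repress transcription, and the PAGE, GAGE and XAGE proteins form a group of small acidic proteins.

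The cells had been transfected with 75 nM of a miR-148b precursor (pre-miR-148b, with the reagent RNAiFect) or with a negative control, whose dose the labels do not give, and were measured 48 h later, with 4 arrays per treatment. Each sample title has a code number as well, and 3 of the titles have a plus mark, and the labels explain neither. Code 1 holds miR-148b replicates 1 and 2 and control replicate 1. Code 2 holds miR-148b replicate 3 and control replicates 2 and 3, and code 3 holds replicate 4 of each treatment. The plus mark stands on miR-148b replicates 2 and 3 and control replicate 3. The labels call the arrays biological replicates and do not say which cultures they came from, so the p-values measure the spread between these arrays. Array medians lay between 370 and 404, the highest value was 243058 on every array, and between 81 and 1038 cells per array were empty. The table holds no detection flag, so a low intensity is not a proof of absence, and with bulk RNA fewer expressing cells and less RNA per cell cannot be told apart. Of 11 marker genes of mesenchymal breast lines, 10 were above the array median on all 8 arrays, VIM, the intermediate filament vimentin, among them. ZEB1 was below it on all 8. Above it on every array were also 5 of 10 luminal breast markers and 54.3% of all genes.

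The transfected microRNA and the promoters of a few members are shown here for reference. Promoter windows were used only for the description that closes the results, and the microRNA sequence entered no test. The mature miR-148b-3p, on the plus strand at chr12:54337278-54337299 (RefSeq, GRCh38.p14), is given with its seed, bases 2 to 8, in capitals.
hsa-miR-148b-3p: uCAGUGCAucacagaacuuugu

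The promoter windows run from 250 bases before to 50 bases after a transcript start (RefSeq, GRCh38.p14), read 5′ to 3′ on the gene's own strand, with every CG dinucleotide, the site of DNA methylation, in capitals. MAGEA12 (chrX:152733612-152733911, plus strand) and PAGE5 (chrX:55220096-55220395, plus strand) stand for the members that were bright on the code 1 arrays. MAGEB2 (chrX:30215313-30215612, plus strand) was bright there, while its neighbour MAGEB1 (chrX:30246896-30247195, plus strand) was dim on all arrays. SSX1 (chrX:48255142-48255441, plus strand) was bright there, while SSX5 (chrX:48196746-48197045, minus strand) was dim on all arrays.
MAGEA12: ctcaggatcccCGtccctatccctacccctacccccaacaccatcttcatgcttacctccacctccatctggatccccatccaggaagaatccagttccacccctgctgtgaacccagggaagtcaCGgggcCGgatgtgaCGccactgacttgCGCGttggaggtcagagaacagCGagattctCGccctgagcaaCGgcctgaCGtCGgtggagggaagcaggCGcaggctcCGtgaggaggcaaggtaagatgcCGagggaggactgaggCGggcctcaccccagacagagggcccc
PAGE5: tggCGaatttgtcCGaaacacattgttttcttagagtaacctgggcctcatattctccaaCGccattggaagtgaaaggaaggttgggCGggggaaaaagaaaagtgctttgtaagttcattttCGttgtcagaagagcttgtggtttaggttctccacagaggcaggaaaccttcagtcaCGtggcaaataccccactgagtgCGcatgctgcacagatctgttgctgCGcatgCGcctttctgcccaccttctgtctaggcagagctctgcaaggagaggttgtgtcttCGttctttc
MAGEB2: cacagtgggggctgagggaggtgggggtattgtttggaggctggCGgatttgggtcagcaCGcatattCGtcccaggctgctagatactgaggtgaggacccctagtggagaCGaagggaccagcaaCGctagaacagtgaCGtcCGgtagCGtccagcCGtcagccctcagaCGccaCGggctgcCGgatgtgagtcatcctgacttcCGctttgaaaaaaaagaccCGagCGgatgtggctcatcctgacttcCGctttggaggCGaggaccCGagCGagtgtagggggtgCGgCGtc
MAGEB1: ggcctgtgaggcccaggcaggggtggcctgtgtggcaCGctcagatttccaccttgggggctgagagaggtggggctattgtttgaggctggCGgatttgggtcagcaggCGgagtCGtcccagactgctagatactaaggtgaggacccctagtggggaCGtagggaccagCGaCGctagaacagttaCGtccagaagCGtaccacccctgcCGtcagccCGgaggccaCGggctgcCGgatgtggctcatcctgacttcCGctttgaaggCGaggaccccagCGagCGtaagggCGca
SSX1: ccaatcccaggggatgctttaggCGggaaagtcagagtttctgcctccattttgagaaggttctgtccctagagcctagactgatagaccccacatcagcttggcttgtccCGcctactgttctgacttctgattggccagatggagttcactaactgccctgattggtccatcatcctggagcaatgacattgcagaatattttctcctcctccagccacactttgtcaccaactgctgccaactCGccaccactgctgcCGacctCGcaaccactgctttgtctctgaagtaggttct
SSX5: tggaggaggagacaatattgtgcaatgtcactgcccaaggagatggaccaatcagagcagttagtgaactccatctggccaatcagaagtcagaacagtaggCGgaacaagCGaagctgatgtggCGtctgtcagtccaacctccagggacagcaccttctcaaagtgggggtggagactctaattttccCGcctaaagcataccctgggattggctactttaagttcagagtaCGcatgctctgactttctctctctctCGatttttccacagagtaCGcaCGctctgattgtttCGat

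Most family members either read high on the 3 code 1 arrays alone or read low on all arrays. The division ran between genes and not between whole families, as MAGEA, MAGEB, MAGEC and SSX held both kinds. Of the low ones, 4 also rose on code 1. With the median intensity of each array as the dividing level, 12 of 26 family members were above it on all 3 code 1 arrays and at or below it on all 5 others, a pattern shown by 1.2% of all genes. PAGE5 was above it on every array, as were 54.3% of all genes, and 12 of 26 stayed at or below it on every array, as did 34.0% of all genes. PAGE2 was mixed, as were 10.5% of all genes, because control replicate 4 lay just above the level, at 412. The level is a description only. MAGEA2B missed the mixed group by 0.02 on the log2 scale, and CTAGE6, also mixed, lay 0.01 from the level on its nearest array.

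**Figure D1:**
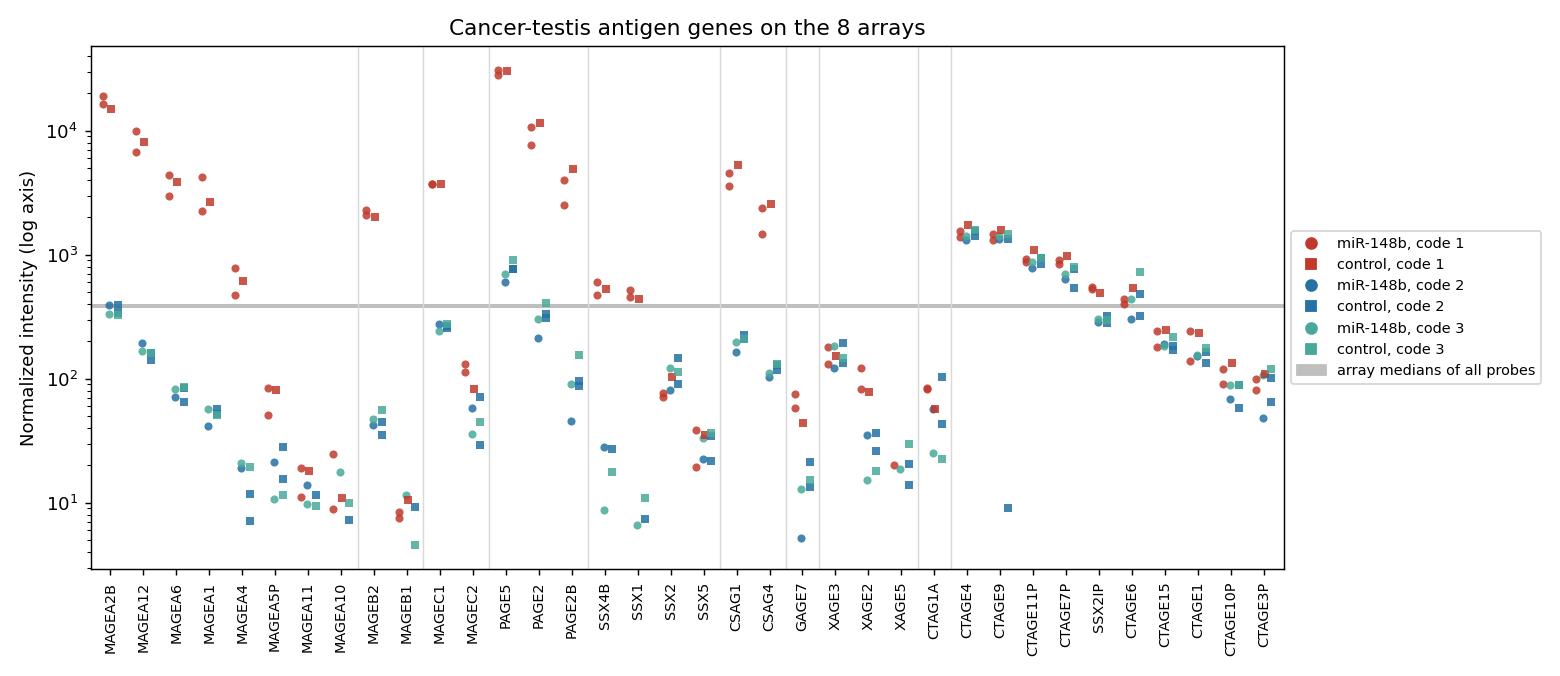
Normalized intensity (log axis) of the 36 genes on the 8 arrays, with circles for miR-148b and squares for control arrays, coloured by code. The grey band spans the array medians from 370 to 404. The code 1 points of 14 family members stand far above those of codes 2 and 3, with PAGE5 between 28018 and 31071 against 607 to 901, while CTAGE genes show no such gap.

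The code 1 arrays were compared with the 5 others in limma, with the treatment as a term. This comparison was chosen with earlier results of these data known, so its p-values are no independent test of the grouping. Of 26 family members 18 rose past an adjusted p of 0.05 over all genes and 0 fell, and SSX2IP also rose, which makes 19 of 36. Over all genes 26.2% passed, 12.3% higher and 14.0% lower. At an unadjusted p under 0.05, 21 of the 36 genes passed, against 36.9% of all genes. All 3 code 1 arrays lay above all 5 others in 18 of 26 family members and in 21 of the 36 genes, against 15.5% of all genes, and no member lay wholly below, against 17.4% of all genes. The family members had a median log2 difference of 4.02, against -0.04 over all genes. A fitted rise over 10-fold was seen in 14 family members and in 92 genes in all, which is 0.576% of those tested, and 13 of the 50 largest rises were family members. With a pseudocount of 50, which shrinks the differences of probes that are dim on one side, it was seen in 11 of these 14 and in 36 genes in all, and SSX1, SSX4B and MAGEA4 were at 3.15, 3.08 and 3.31 on the log2 scale.

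These 14, chosen after their values were seen as called, rising by over 2 on the log2 scale and above the array median on every code 1 array, are called the bright members below. They are MAGEA1, MAGEA2B, MAGEA4, MAGEA6, MAGEA12, MAGEB2, MAGEC1, PAGE2, PAGE2B, PAGE5, SSX1, SSX4B, CSAG1 and CSAG4. Their log2 differences ran from 3.82 to 5.90, with a median of 5.46, or from 3.08 to 5.33 and 4.69 with the pseudocount of 50, and their mean on the other arrays was 1.69 to 7.09% of the mean on the code 1 arrays. Both treatments were present among the code 1 arrays and among the others, and in all 14 control replicate 1 sat with the 2 miR-148b arrays of code 1. The choice required values above the array median on every code 1 array, so this placing was largely fixed by it and is no support.

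The MAGEA genes encode proteins around a MAGE homology domain. MAGEA12 read 6705 and 9935 on miR-148b replicates 1 and 2 and 8128 on control replicate 1, against 194 and 166 on miR-148b replicates 3 and 4 and 162, 141 and 162 on control replicates 2, 3 and 4. The mean was 8256 ± 1619 (SD, n = 3) on code 1 and 165 ± 19.1 (SD, n = 5) on the other codes. The 3 code 1 arrays were high in both treatments and the groups lay far apart, with a log2 difference of 5.60 (SE 0.17, limma adjusted p = 3.55e-06).

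MAGEA1, a gene of the same family, read 4268, 2265 and 2650 on the code 1 arrays (miR-148b replicates 1 and 2, then control replicate 1). On the others it read 41.3 and 57.4 with miR-148b and 51.8, 56.6 and 51.0 in control. The lowest code 1 array thus stood well above the highest other array, and the log2 difference was 5.84 (SE 0.24, limma adjusted p = 8.34e-06). MAGEA2B, whose probe may not tell it from its near-identical copy MAGEA2, read 16395, 19008 and 14855 on the same code 1 arrays. Its other arrays read 391 and 333 with miR-148b and 340, 396 and 327 in control, close to the middle of each array, so that it was neither bright nor among the dimmest probes there. Its log2 difference was 5.52 (SE 0.13, limma adjusted p = 1.97e-06).

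MAGEA6, a close copy of MAGEA3 and known with it as a partner of the ligase TRIM28, averaged 3764 ± 725 (SD, n = 3) on code 1 and 78.1 ± 9.34 (SD, n = 5) on the other codes. MAGEA4, an antigen used as a target of T cell therapy, averaged 622 ± 154 (SD, n = 3) on code 1 and 15.7 ± 5.97 (SD, n = 5) on the others. Both were separated without overlap and rose by log2 differences of 5.60 and 5.26 (limma adjusted p = 3.61e-06 and 8.13e-05). The pseudogene MAGEA5P rose as well, by 2.16 (SE 0.36, limma adjusted p = 0.00452), but stayed dim, at 71.8 ± 18.4 (SD, n = 3) on code 1 and 17.4 ± 7.18 (SD, n = 5) on the others. MAGEA10 and MAGEA11, a coregulator of the androgen receptor, did not pass, with log2 differences of 0.06 and 0.50. MAGEA10 read 24.7, 8.97 and 10.9 on code 1 and between 7.31 and 17.7 on the other arrays with a value, so the groups overlapped. Its cell was empty on miR-148b replicate 3 and control replicate 3, and the fit used 6 arrays. MAGEA11 had a value on 7 arrays, between 9.37 and 18.9.

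The 2 measured MAGEB genes, which lie near each other on the short arm of the X chromosome, differed. MAGEB2 read 2099, 2297 and 2028 on code 1 (miR-148b replicates 1 and 2, control replicate 1), against 42.4 and 47.6 with miR-148b and 35.1, 44.4 and 56.0 in control on the others. It was high on the code 1 arrays of both treatments, with a log2 difference of 5.57 (SE 0.17, limma adjusted p = 3.61e-06). MAGEB1 read 7.49, 8.48 and 10.6 on code 1 and 4.55 to 11.6 on the 3 other arrays with a value, with a log2 difference of 0.09 (SE 0.41, limma adjusted p = 0.917), and was among the dimmest probes throughout.

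Of the MAGEC genes, MAGEC1 read 3729, 3754 and 3737 on code 1 and 245 to 279 on the other codes. The arrays within each group differed little, and the log2 difference was 3.82 (SE 0.11, limma adjusted p = 2.61e-06), or 3.59 with a pseudocount of 50. MAGEC2, another partner of TRIM28, averaged 110 ± 24.8 (SD, n = 3) on code 1 and 48.0 ± 17.2 (SD, n = 5) on the others, and rose by 1.18 (SE 0.33, limma adjusted p = 0.0341) while staying below the median of every array.

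All 3 PAGE genes were bright on code 1. PAGE5 read 31071 and 28018 on miR-148b replicates 1 and 2 and 30612 on control replicate 1, against 607 and 696 on miR-148b replicates 3 and 4 and 763, 769 and 901 on control replicates 2 to 4. It was the only family member above the array median on all 8 arrays, yet the code 1 arrays still stood 42.0-fold higher (log2 difference 5.39, SE 0.13, limma adjusted p = 1.97e-06).

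PAGE2 read 10806, 7653 and 11487 on code 1, against 212 and 305 with miR-148b and 331, 309 and 412 in control on the others. PAGE2B read 3987, 2535 and 4943 on code 1, against 45.3 and 91.5 with miR-148b and 87.4, 96.4 and 156 in control. These near-identical genes, which their probes may not tell apart, were high on the same arrays, with log2 differences of 5.11 and 5.57 (SE 0.19 and 0.31, limma adjusted p = 6.33e-06 and 3.21e-05). On both probes control replicate 4 was the highest of the other arrays and miR-148b replicate 3 the lowest.

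The SSX genes, known from their fusion to SS18 in synovial sarcoma, were split. SSX1 read 454, 521 and 440 on code 1, against 6.62 on miR-148b replicate 4 and 7.42 and 10.9 on control replicates 2 and 4. Its cells on miR-148b replicate 3 and control replicate 3 were empty, so the fit used 6 arrays and gave a log2 difference of 5.90 (SE 0.24, limma adjusted p = 7.8e-05). With no measure of background at such low intensities the size of this difference is uncertain, and it was 3.15 with a pseudocount of 50. SSX4B, not separable here from SSX4, read 478, 605 and 534 on code 1 and between 8.80 and 28.0 on 4 of the others, with an empty cell on control replicate 2. Its log2 difference was 4.90 (SE 0.42, limma adjusted p = 0.000441), and its second probe read at most 152 on code 1, where its 3 arrays were nearly equal, against 7.91 to 12.4 on the 3 others with a value. That probe lay below the array median on the code 1 arrays as well, so whether SSX4B counts as bright depends on the probe. SSX2 and SSX5 overlapped between the groups. SSX2 averaged 84.2 ± 17.6 (SD, n = 3) on code 1 and 111 ± 25.2 (SD, n = 5) on the others, a log2 difference of -0.30 (SE 0.21, limma adjusted p = 0.347), and SSX5 was at 0.10 (SE 0.29).

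CSAG1 and CSAG4 lie among the MAGEA genes in the genome. CSAG1 read 4565, 3574 and 5251 on code 1 (miR-148b replicates 1 and 2, control replicate 1), against 165 and 197 with miR-148b and 227, 208 and 208 in control, a log2 difference of 4.54 (SE 0.13, limma adjusted p = 3.55e-06). CSAG4 averaged 2130 ± 585 (SD, n = 3) on code 1 and 118 ± 12.1 (SD, n = 5) on the others, a difference of 4.22 (SE 0.18, limma adjusted p = 9.52e-06). Both were high on the 3 code 1 arrays and low on the 5 others.

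The remaining families were dim. GAGE7, whose probe may also take up other GAGE copies, read 75.3, 57.9 and 44.3 on code 1 and 5.18 to 21.4 on the other codes, and XAGE2 read 82.5, 122 and 77.9 on code 1 and 15.2 to 36.4 on the others. Both were higher on code 1 without overlap (log2 differences 2.34 and 1.90, limma adjusted p = 0.00671 and 0.00734), though below the median of every array. Under the alternatives the difference of GAGE7 ran from 0.78 to 3.02, so its size is uncertain at such low intensities. XAGE3 averaged 155 ± 23.8 (SD, n = 3) on code 1 and 156 ± 31.2 (SD, n = 5) on the others (log2 difference 0.02, SE 0.21). XAGE5 had a value on only 1 code 1 array, 20.0, against 13.9 to 29.8 on 4 others. CTAG1A, which encodes the vaccine antigen NY-ESO-1 together with its copy CTAG1B, read 82.6, 84.6 and 56.8 on code 1 and 22.5 to 103 on the others, with a log2 difference of 0.77 (SE 0.53, limma adjusted p = 0.349). Its groups overlapped.

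Of the genes that share only the letters, 0 of 9 CTAGE genes passed in limma, against 26.2% of all genes, and 2 were under an unadjusted p of 0.05, against 36.9% of all genes. CTAGE4, CTAGE7P and CTAGE11P were above the median on every array, with log2 differences of 0.15, 0.44 and 0.19. CTAGE6 overlapped between the groups, with 399 to 542 on code 1 inside the 306 to 728 of the other codes. CTAGE9 read between 1325 and 1581 on 7 arrays and 9.02 on control replicate 2. SSX2IP, a protein of centrosomes and cell junctions, averaged 524 ± 32.4 (SD, n = 3) on code 1 and 298 ± 16.1 (SD, n = 5) on the others, a rise of 0.81 (SE 0.11, limma adjusted p = 0.0018), far smaller than that of the bright members.

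**Figure D2:**
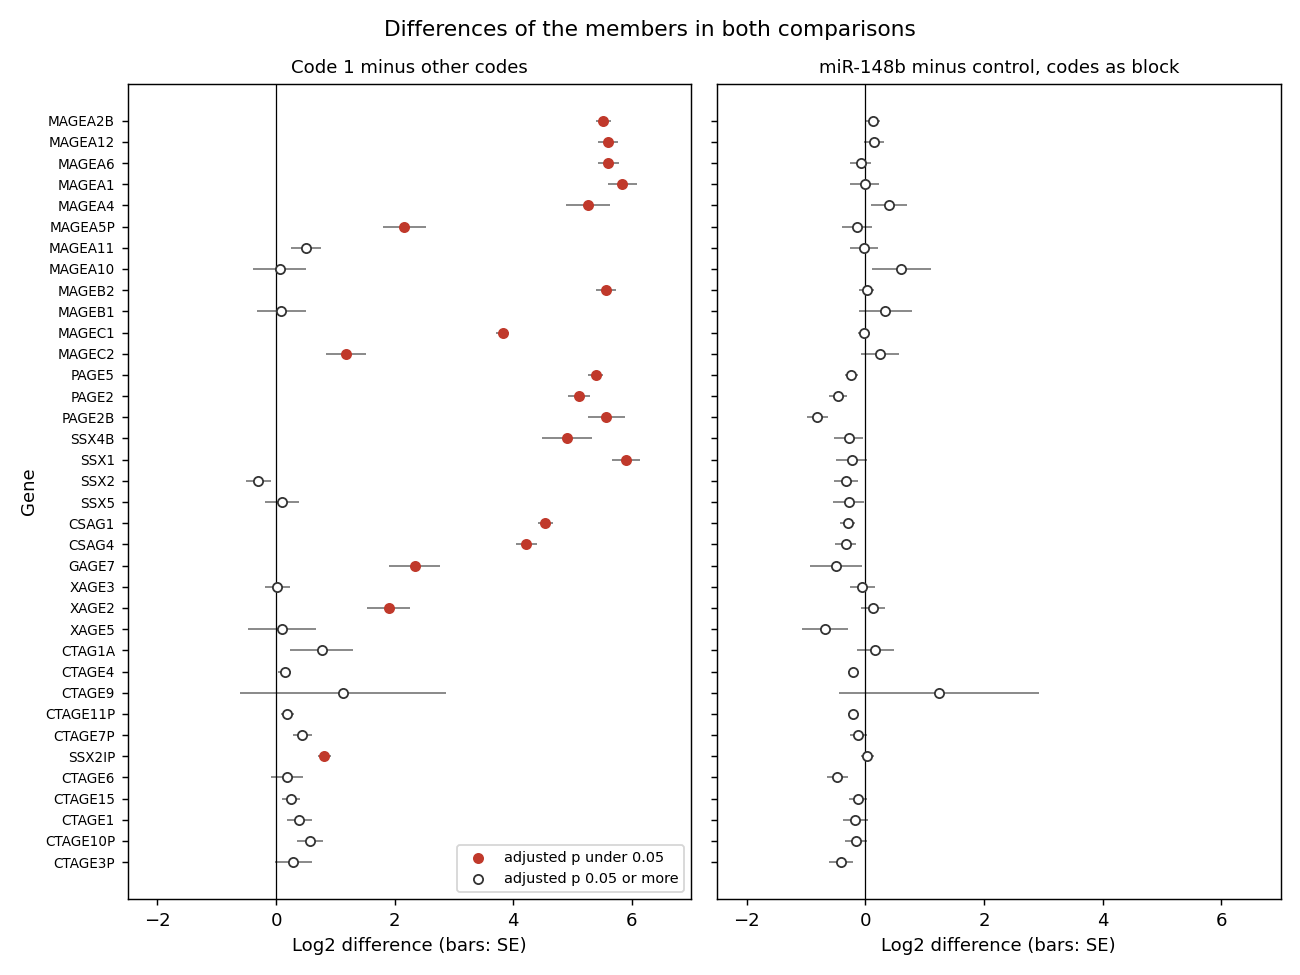
Log2 differences with their SE for the 36 genes, code 1 minus other codes on the left and miR-148b minus control with the codes as a block on the right. Filled points passed an adjusted p of 0.05, which was the case for 19 genes on the left and 0 on the right, where the family members lay between -0.81 and 0.61.

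The miR-148b arrays were then compared with the control arrays. With all 8 arrays and no block, 0 of 36 members passed in limma (smallest adjusted p = 0.846), 0 were under an unadjusted p of 0.05, and over all genes 0.0% passed, with 5.36% under the unadjusted threshold. All 14 bright members nevertheless lay above 0, between 0.54 and 1.82, but PAGE2, PAGE2B, CSAG4 and SSX4B fell below 0 when miR-148b replicate 1 of code 1 was left out. Among the miR-148b arrays 2 of 4 are of code 1, and among the control arrays 1 of 4. MAGEA12, for example, averaged 4250 ± 4881 with miR-148b and 2148 ± 3987 in control (SD, n = 4 each). Its log2 difference was 1.54 (SE 1.82), and its code 1 arrays, from 6705 to 9935, and its other arrays, from 141 to 194, occur in both groups. Of the members with the smallest p, MAGEA10 was at 0.77, SSX2 at -0.38, CTAGE6 at -0.34 and CTAGE9 at 1.77, and none passed (limma adjusted p = 0.846 each).

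With the code number as a block, again 0 of 36 members passed, and 0.0% of all genes did. At an unadjusted p under 0.05 there were 3 of the 36 (PAGE2B, PAGE2 and CTAGE6), against 13.2% of all genes. The median over the family members was -0.07, and over all genes it was -0.02. Within codes 1, 2 and 3 the 14 bright members had median differences of -0.01, -0.07 and -0.21, next to 0.01, -0.02 and -0.01 over all genes.

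The smallest p-values with the block were those of PAGE2B and PAGE2. PAGE2B was lower with miR-148b within every code, with differences of -0.64, -1.02 and -0.77 in codes 1, 2 and 3, and had a blocked log2 difference of -0.81 (SE 0.18, limma adjusted p = 0.316). PAGE2 was at -0.34, -0.60 and -0.44 within the codes and at -0.46 with the block (SE 0.15, limma adjusted p = 0.33). Among arrays that match in code and plus mark, PAGE2B read 3987 with miR-148b and 4943 in control in code 1, 45.3 and 96.4 in code 2, and 91.5 and 156 in code 3. The miR-148b array was the lower one in each of these pairs. PAGE2 read 10806 with miR-148b and 11487 in control in code 1, 212 and 309 in code 2, and 305 and 412 in code 3, in the same direction. As the probes of the 2 genes may read the same messages, they are not separate evidence.

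PAGE5 was at -0.24 (SE 0.11, limma adjusted p = 0.407) with the block, with 31071 in miR-148b and 30612 in control in the matched arrays of code 1, 607 and 769 in code 2, and 696 and 901 in code 3. It was thus lower with miR-148b in 2 of the 3 matched pairs. CSAG1 was at -0.30 (SE 0.13, limma adjusted p = 0.393) and CSAG4 at -0.33 (SE 0.18, limma adjusted p = 0.453). CTAGE6 was at -0.47 (SE 0.17, limma adjusted p = 0.358). None of these reached the threshold over all genes.

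No MAGE gene passed either. MAGEA12 was at 0.14 (SE 0.17), with differences of 0.01, 0.36 and 0.04 within codes 1, 2 and 3, MAGEA2B at 0.13 (SE 0.12), and MAGEC1 at -0.02 (SE 0.10). Their limma adjusted p were 0.708, 0.626 and 0.952. MAGEA10, MAGEA4, MAGEB1 and MAGEC2 were at 0.61, 0.40, 0.34 and 0.25 with the block (SE 0.49, 0.30, 0.45 and 0.32, limma adjusted p = 0.61, 0.564, 0.745 and 0.735). MAGEA4 was at 1.05 within code 2 and MAGEB1 at 1.35 within code 3, and neither read above 20.9 on the arrays of codes 2 and 3. In the test of whether the miR-148b difference itself differed between code 1 and the other codes, 0 of 35 testable members passed and 0 were under an unadjusted p of 0.05, against 0.0% and 1.46% of all genes.

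**Figure D3:**
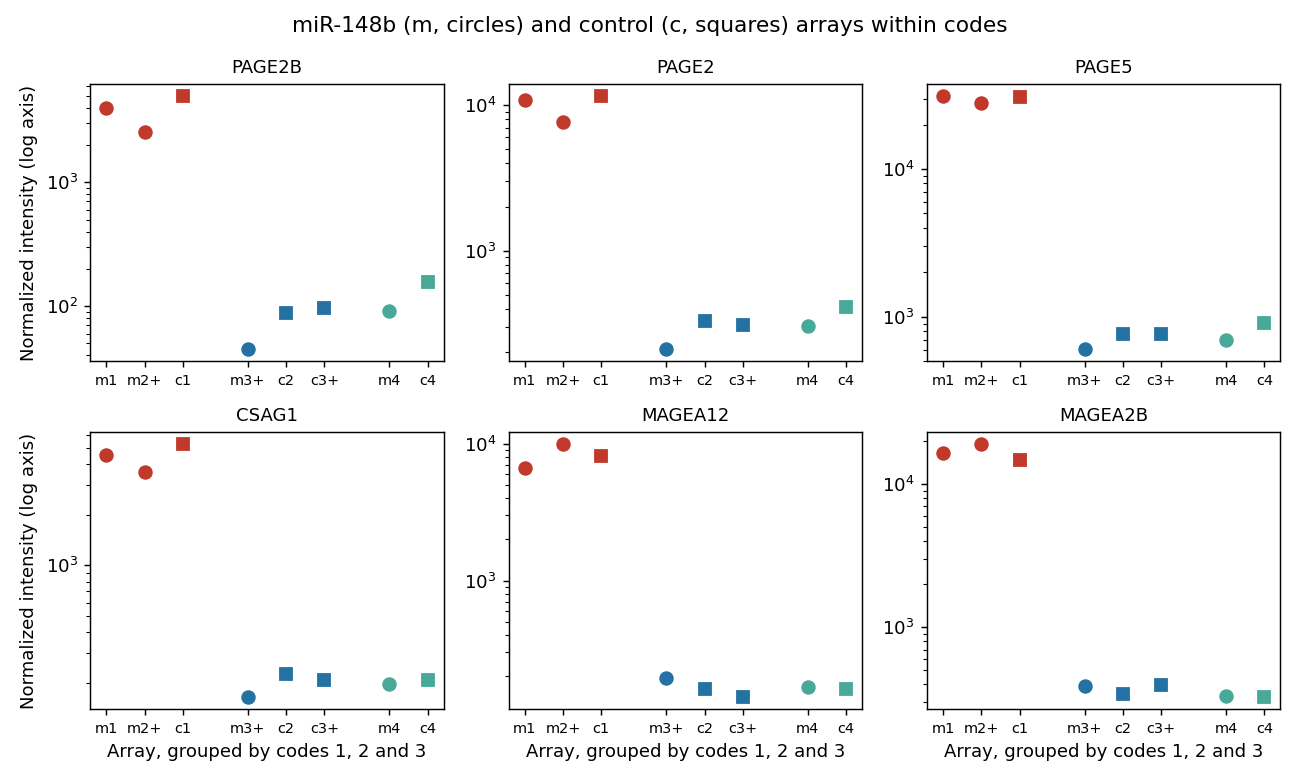
Normalized intensity (log axis) of 6 members by array, with miR-148b arrays (m, circles) left of the control arrays (c, squares) within codes 1, 2 and 3 and a plus sign for the plus mark. PAGE2B lies lower with miR-148b in each code, at 3987 and 2535 against 4943 in code 1, while MAGEA12 and MAGEA2B show no such order.

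The plus mark was tested with the treatment and code 1 as terms. Among the 36 genes 2 passed as higher and 3 as lower on the plus-marked arrays, against 5.94% and 7.71% of all genes, 13.7% together. At an unadjusted p under 0.05 there were 15 of 36, against 34.7% of all genes. The higher ones were MAGEA5P at 0.89 and XAGE2 at 0.85 (limma adjusted p = 0.0204 and 0.0314), and the lower ones MAGEA10 at -1.43, SSX5 at -0.74 and CTAGE3P at -0.70 (0.0399, 0.0122 and 0.0468). All 5 are dim probes, and 0 of the 14 bright members passed. At an unadjusted p under 0.05 there were 4 of the 14, against the same 34.7% of all genes. These were SSX4B at 0.88, MAGEA2B at 0.25, PAGE2 at -0.39 and PAGE2B at -0.58.

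Companion lists show which related genes did and did not share the code 1 pattern. They were chosen with results of these arrays known. Of 30 measured cancer-testis genes of other families, 7 rose and 4 fell on code 1, against 12.3% higher and 14.0% lower among all genes. Their median log2 difference was 0.03. Reading above the array median on the code 1 arrays alone was seen in 0 of them and in 1.2% of all genes. At so low a share a count of 0 in 30 says little. LY6K, a surface protein anchored by a lipid, averaged 6673 ± 1591 (SD, n = 3) on code 1 and 755 ± 224 (SD, n = 5) on the others (log2 difference 3.03, limma adjusted p = 0.000141). SPANXA1 and SPANXD, copies of a sperm nuclear protein gene that were named after their values were seen, rose by 2.24 and 2.28 but were bright on all arrays, with SPANXD at 18558 ± 2884 (SD, n = 3) on code 1 and 4116 ± 1490 (SD, n = 5) on the others. PLAC1, a gene of placenta and tumours, rose by 0.98, and CT45A5, NXF2 and ZNF165 rose as well.

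The 4 that fell were FTHL17, a ferritin-like gene on the X chromosome, at 13712 ± 3443 (SD, n = 3) on code 1 and 35235 ± 4986 (SD, n = 5) on the others, MAEL, a gene of transposon control in germ cells, at 29.9 ± 11.0 and 168 ± 19.9, CABYR, a sperm calcium-binding protein gene, and DDX43, an RNA helicase gene. DDX43 read 17.4 on the 1 code 1 array with a value, miR-148b replicate 2, against 356 to 663 on the other codes, so its test takes that lone array to vary like the others. The log2 differences of FTHL17, MAEL, CABYR and DDX43 were -1.27, -2.56, -0.83 and -4.79 (limma adjusted p = 0.000444, 0.000389, 0.00361 and 0.000975). The 4 measured germ cell markers, PIWIL2, TEX101, PRM1 and PRM2, were below the array median on every array, as were 34.0% of all genes. In limma 0 of 4 passed, against 26.2% of all genes, and 0 were at an unadjusted p under 0.05, against 36.9%. With only 4 genes these counts say little. Their summed intensity was 114 to 224 on code 1 and 162 to 207 on the others.

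The type II MAGE genes, which share the MAGE domain but are expressed in many tissues, had 1 of 9 higher and 2 lower, against 12.3% and 14.0% of all genes. MAGEH1 averaged 3359 ± 479 (SD, n = 3) on code 1 and 1254 ± 274 (SD, n = 5) on the others, a log2 difference of 1.42. MAGED1 averaged 3870 ± 621 on code 1 and 15015 ± 1961 on the others, a difference of -1.88, and NSMCE3 was at -0.75 (limma adjusted p = 0.00259, 5.21e-05 and 0.0308 for the 3). Of 5 ubiquitin ligases known as MAGE partners, TRIM27 rose by 0.69 and LNX1 fell by 0.53 on the log2 scale, while TRIM28 averaged 9858 ± 1832 (SD, n = 3) on code 1 and 8265 ± 2114 (SD, n = 5) on the others and did not pass (0.36, limma adjusted p = 0.281).

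Of 16 measured genes of DNA methylation and chromatin silencing, 5 rose and 0 fell on code 1, against 12.3% and 14.0% of all genes. HDAC1, a histone deacetylase, averaged 24701 ± 2236 (SD, n = 3) on code 1 and 11580 ± 728 (SD, n = 5) on the others, and rose by 1.06 (limma adjusted p = 0.000558). DNMT3B, a DNA methyltransferase that sets new methylation, averaged 6884 ± 2227 on code 1 and 2164 ± 738 on the others, and rose by 1.52 (limma adjusted p = 0.0064). CTCF, HELLS and SETDB1 rose by 0.72, 0.69 and 0.46, and DNMT1, the maintenance methyltransferase, was at 0.48 (SE 0.17, limma adjusted p = 0.0855). DNA methylation itself was not measured.

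Markers of other cell types were counted in the same way, beside 12.3% higher and 14.0% lower among all genes. Of 10 luminal breast markers 2 rose and 1 fell, with TFF1, a secreted trefoil peptide, at 10567 ± 1406 (SD, n = 3) on code 1 and 386 ± 133 (SD, n = 5) on the others (log2 difference 4.90, limma adjusted p = 3.78e-05), while ERBB3 was at 0.62 and GATA3 at -1.38. Their summed intensity was 190191 to 220428 on code 1 and 155052 to 180832 on the others. Of the 11 mesenchymal markers 2 rose and 2 fell, with MSN at 0.64, VIM at 0.48, CD44 at -1.31 and CAV2 at -1.10, and the sums were 367296 to 384954 on code 1 and 330321 to 393957 on the others. Of 5 melanocyte markers MITF rose by 1.22, with sums of 3359 to 4109 on code 1 and 1615 to 1991 on the others, and 3 were dim on every array. Of 6 leukocyte markers CD14 fell by 0.95 on the log2 scale, with sums of 978 to 2080 on code 1 and 1256 to 2719 on the others, and 5 were dim on every array. The part of these differences in the cancer-testis pattern was not tested, and the labels do not say what code 1 stands for. In the miR-148b comparison, 0 genes of any of these lists passed in limma with or without the code block (0.0% of all genes). At an unadjusted p under 0.05 the count was 4 of the 96 list genes without the block, beside 5.36% of all genes, and 17 of 95 with it, beside 13.2%.

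**Figure D4:**
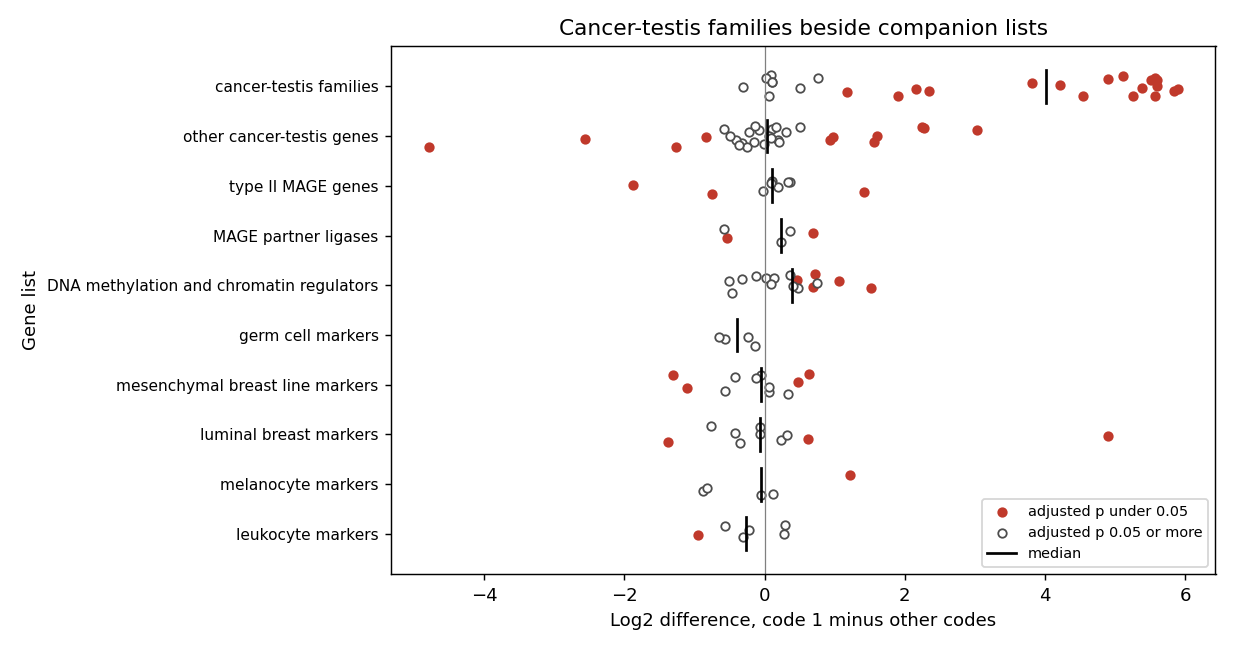
Log2 difference, code 1 minus other codes, of the family members (top) and of each companion list, with filled points past an adjusted p of 0.05 and a bar at the median. The family median of 4.02 stands against 0.03 for the other cancer-testis genes, of which LY6K lies at 3.03 and DDX43, with 1 code 1 array, at -4.79.

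Position was looked at next. Of the 26 family members 25 lie on the X chromosome, and 1, GAGE7, has no chromosome in the gene table used. The nearest measured genes on either side of the 14 bright members that are not members themselves came to 15 genes, chosen after the bright members were known. Of these, 4 rose on code 1 (SLITRK4 by 2.72, SPANXD by 2.28, MAGEH1 by 1.42 and GABRE by 0.48), 3 fell (ZNF630 at -1.57, IL1RAPL1 at -1.22 and ZNF275 at -0.68), and the median was -0.16, while over all genes 12.3% rose and 14.0% fell. CETN2, which encodes centrin and borders the block of MAGEA2B, MAGEA6, MAGEA12, CSAG1 and CSAG4, read 4762 ± 179 (SD, n = 3) on code 1 and 5454 ± 823 (SD, n = 5) on the others, with a log2 difference of -0.16. GABRQ on the other side was dim on every array. The rise was thus not shared by all genes next to the bright members.

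Promoter windows were at hand for 20 of 26 family members. In the window with the most CG dinucleotides of each gene, the 12 bright members with a window held 5 to 21, with a median of 14.5, the 2 dim members that rose held 10 each, and the 6 that did not pass held 8 to 21, with a median of 12. In the same kind of window, the one with the most for each of 27305 genes, the median was 16 and the quartiles 4 and 30. Of the sequences shown above, MAGEB2 holds 21 and its dim neighbour MAGEB1 holds 18, while SSX1 holds 5 and the dim SSX5 holds 9. The bright gene held more of these dinucleotides in the first pair and fewer in the second. Whether the count bears on brightness was not tested.

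MAGEA promoters are known to be driven by ETS factors, which bind around letters such as CGGAAG and are hindered there by methylation. The letters CGGAAG, searched on both strands, were found in any window of 4 of 20 family members and of 22.6% of the 27305 genes with a window. Of all 35116 single windows 19.5% held them. These were the bright MAGEB2 and MAGEA4 and the dim MAGEB1 and MAGEA11, with 2 matches each in MAGEB2 and MAGEA4 and 1 each in MAGEB1 and MAGEA11. A match is a run of letters and not a shown binding site. Only CGGAAG was searched. The run CGGATG, for example, stands in the windows of MAGEA12, MAGEB2 and MAGEB1 shown above and was not counted. The counts hold for the searched spelling only and do not give how many members have an ETS site. The windows of MAGEA12 and CSAG1, which run on opposite strands, overlap by 240 bases, and both genes were high on the same arrays, at 8256 ± 1619 and 4463 ± 843 (SD, n = 3) on code 1.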

How the data were processed

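The members and gene lists were chosen with earlier results of these data known. RNA of MDA-MB-231 cells was hybridised to Agilent one-colour (Cy3) arrays, 4 per treatment, and Agilent Feature Extraction 10.5.1.1 served for image analysis, per the labels. The values used are the linear probe intensity values that the authors deposited for 33446 probes on 8 arrays. How background was treated, which normalization was applied and whether probes were filtered is not given in the sources used here. Every column was used.

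Probes were named through the platform annotation and a RefSeq gene table (GRCh38.p14). One gene was listed for 24790 probes, several for 27 and none for 8629. A gene ID was found in the table for 24762. Of 39 probes of the 36 genes, each gene kept the one with the highest mean, and all 36 entered the test of code 1. Log2 was taken with a pseudocount of 0, and empty cells stayed empty. Differences were tested with limma 3.58.1 in R 4.3.3 (lmFit, eBayes, two-sided) over all genes, with Benjamini-Hochberg adjustment at 0.05 and terms as named beside each result. The fits were tested on simulated data. A gene was tested only where its arrays could separate the terms. No depth exists for arrays, and their number limits the precision. The alternatives were a pseudocount of 50, removal of the dimmest 50% of genes, the mean of a gene's probes, median centring, a plus-mark term, genes with a value on all arrays, each array left out, a replicate block and, chosen after seeing the data, removal of the plus-marked arrays.

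Genes were named by a rule: the markers MAGEA12, MAGEA1, MAGEB2, PAGE5 and SSX1, the member with the highest mean in each family, the 12 largest differences of code 1, the 4 smallest p in each miR-148b comparison, the members above the array median on code 1 arrays only or on all arrays, and 4 nearest that level. Other members are named to account for all of them. From each companion list up to 4 genes that passed with the smallest p were named. Promoter and microRNA sequences are RefSeq's. Figures were drawn with matplotlib 3.10.9.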

Additional observations from a re-analysis of the deposited data

Results flagged for a closer look

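Among the 4 control arrays, control replicate 1 stood apart from the other 3 by more than Dixon's 95% limit in 11 family members. Such a gap occurs by chance in about 1 of 20 groups, but that rate is no yardstick here. All 11 are bright members, chosen for high values on the code 1 arrays, and these genes share their arrays. The share of all genes with such a gap is not given here. The values of control replicate 1 were 30612 for PAGE5, 11487 for PAGE2, 4943 for PAGE2B, 14855 for MAGEA2B, 8128 for MAGEA12, 3895 for MAGEA6, 2650 for MAGEA1, 2028 for MAGEB2, 3737 for MAGEC1, 5251 for CSAG1 and 2561 for CSAG4. It is the only control array of code 1, and in each of these genes it lay near the miR-148b arrays of that code. MAGEA1, for example, read 2650 there, beside 4268 and 2265 on the miR-148b arrays of code 1. The 4 miR-148b arrays split into 2 and 2, so this check cannot single out an array there.

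CTAGE9 read 9.02 on control replicate 2, far from the other controls and from the other arrays of codes 2 and 3, which lay between 1337 and 1581. Its miR-148b difference of 1.77 rests on that array.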

How the results depend on the processing

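All 14 bright members stayed past the threshold on code 1 under every alternative that could be run, with adjusted p of at most 0.00678 in limma. They were chosen for passing this comparison by a wide margin on these arrays, so this is no independent support. Without the dimmest 50% of genes 13 members were left, 10 of them higher on code 1, and 2658 genes passed. Members that are bright on code 1 alone pass that filter through those arrays, so this share is no support. With a pseudocount of 50, SSX1, SSX4B and MAGEA4 were at 3.15, 3.08 and 3.31 on code 1, against 5.90, 4.90 and 5.26. Leaving out 1 array moved the count over all genes between 1976 (without control replicate 1) and 4932 (without control replicate 3). With the level at the 25th percentile of an array, 7 of the 36 genes were above it on code 1 only, 16 on every array and 5 on none. At the 75th percentile 0 were above it on every array and 25 on none. In the miR-148b comparisons the count of members and of genes that passed stayed 0 under all alternatives, with or without the code block.

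Of the 25 named members, 3 changed sign on code 1 under some alternative (9 values in 385), 13 for miR-148b with the code block (39 values in 357) and 9 without a block (26 values in 383). Some of these differences were not small. None of the miR-148b differences passed under any alternative, and the cause of the changes was not tested. On code 1, XAGE3 was at -0.04 with a plus-mark term, and CTAGE6 and XAGE3 at -0.07 and -0.09 without the plus-marked arrays. With the code block, XAGE3, MAGEB2, MAGEA1, CTAG1A and CTAGE9 were at 0.14, -0.08, 0.14, -0.04 and -0.10 with a plus-mark term, and GAGE7, XAGE3, MAGEB2, CTAGE9, MAGEA4, MAGEA12 and MAGEA1 at 0.25, 0.27, -0.09, -0.15, -0.14, -0.12 and 0.43 without the plus-marked arrays. In the same fit SSX1 and MAGEA1 were at 0.03 and 0.04 with a pseudocount of 50, SSX4B at 0.11 with the mean of its probes, and MAGEB2 at 0.00 with centred arrays. Without a block, XAGE3 and CTAG1A were at 0.07 and -0.03 with a plus-mark term, and CTAGE7P, SSX4B and XAGE3 at -0.09, -0.58 and 0.15 without the plus-marked arrays.

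Leaving out 1 array gave ranges that crossed 0. On code 1 they were -0.25 to 0.41 for MAGEA10 and -0.13 to 0.14 for XAGE3. With the code block they were -1.10 to 0.21 for GAGE7, -0.72 to 0.14 for SSX1, -0.48 to 0.02 for SSX4B, -0.19 to 0.14 for XAGE3, -0.17 to 0.21 for MAGEA1, -0.16 to 0.01 for MAGEA6, -0.12 to 2.08 for CTAGE9, -0.08 to 0.05 for MAGEC1, -0.05 to 0.39 for CTAG1A, and -0.04 to 0.11 and 0.09 for MAGEB2 and SSX2IP. Without a block they were -0.43 to 0.86 for GAGE7, -0.39 to 2.07 for SSX4B, -0.37 to 2.05 for PAGE2B, -0.17 to 0.59 for CTAG1A, -0.15 to 0.14 for CTAGE7P, -0.12 to 0.07 for XAGE3, -0.08 to 2.13 for PAGE2, and -0.07 to 1.82 and 2.42 for CSAG4 and CTAGE9. CTAGE7P passed on code 1 under 2 alternatives, with an adjusted p as low as 0.0339.

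The replicate numbers did not pair all arrays: deviations from the group means correlated at 0.708, 0.582 and 0.699 for replicates 1, 3 and 4 and at -0.545 for replicate 2. With the replicate block, 0 genes passed for miR-148b and 0 members did, and SSX4B was at -0.37.

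The arrays carry no measure of signal over background, so members below about the array median cannot be called absent. Code 1 has 3 arrays and 1 of them is a control, the meaning of code and plus mark is not given, and close copies within the MAGEA, PAGE, SSX, GAGE, CSAG and CTAG families cannot be told apart by their probe names.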
